A study of Mus musculus with 32 samples.

Results

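The genes described here are the longest protein-coding genes of the mouse genome, those whose genomic span in GENCODE release M21 (build mm10) is 500 kb or more. Of the 25041 genes of the deposited RNA-seq tables that carry this annotation, 18640 are protein-coding and 218 of these are that long, of which 216 are described here. These 216 are called long genes below. Their spans run from 501752 bp (Edil3) to 2960900 bp (Fgfr2), with a median of 727069 bp, and the length rule used no measured value. Around the limit, Edil3 (501752 bp) and Car10 (503722 bp) lie just inside, and Pde1c (499300 bp) and Dnm3 (495582 bp) just outside. In lung controls Edil3 had 1.71 and 1.90 RPKM (reads scaled by exon length and by library depth), Car10 0 and 0.00409, Pde1c 0.0757 and 0.0718, and Dnm3 0.572 and 0.528.

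The study followed cisplatin adducts, their excision and transcription in the kidney, liver, lung and spleen of wild-type C57BL/6J female mice aged 6 or 7 months. A single dose of 10 mg cisplatin per kg body weight, or saline for the controls, was injected into the peritoneum at ZT1 and organs were taken at ZT5, where ZT counts hours from lights on. These clock times give 4 h, and the labels also carry a time of 2 h. Damage-seq and XR-seq were made from cisplatin-treated mice only, with 2 libraries an organ, and RNA-seq from cisplatin and saline mice, with 2 libraries an organ and group. A note deposited with the data says that the cisplatin and control labels of the lung and spleen RNA-seq libraries were later corrected by exchanging them, and every RNA-seq direction given here for lung and spleen rests on the labels as they now stand.

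Cisplatin links neighbouring guanines of 1 strand, mostly at GG dinucleotides, and such adducts stop RNA polymerase II on the transcribed strand (TS). Nucleotide excision repair removes them, either after a polymerase has stalled (transcription-coupled repair, on the TS) or by recognition anywhere in the genome (global repair, on both the TS and the non-transcribed strand, NTS). A polymerase has to pass every lesion between the start and the end of a gene, so the number of sites per transcript grows with length. Genes of this length are mostly synaptic adhesion molecules, ion channels, scaffolds, phosphodiesterases and other signalling proteins, and several are known as common fragile sites.

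The substrate that both repair assays count is the GG dinucleotide inside long introns. To show it, 200 bases of the coding strand at the midpoint of 3 genes are printed, all intronic, from the RefSeq sequence of GRCm38 (mm10). The genes are Pde4d, Nckap5 and Sox6, whose RNA was lower after cisplatin in kidney and lung. Capitals mark every GG, which is a possible adduct on the NTS, and every CC, which is a GG on the TS.
Pde4d, chr13:109201605-109201804, plus strand: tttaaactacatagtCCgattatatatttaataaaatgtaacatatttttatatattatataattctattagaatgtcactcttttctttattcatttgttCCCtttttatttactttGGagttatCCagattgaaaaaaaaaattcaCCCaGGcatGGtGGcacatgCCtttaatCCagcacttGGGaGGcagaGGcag
Nckap5, chr1:126372110-126372309, minus strand: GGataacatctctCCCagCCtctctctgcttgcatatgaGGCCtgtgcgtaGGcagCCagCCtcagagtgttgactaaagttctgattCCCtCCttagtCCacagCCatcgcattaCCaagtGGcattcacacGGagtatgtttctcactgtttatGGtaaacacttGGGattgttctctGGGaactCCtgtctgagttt
Sox6, chr7:115754734-115754933, minus strand: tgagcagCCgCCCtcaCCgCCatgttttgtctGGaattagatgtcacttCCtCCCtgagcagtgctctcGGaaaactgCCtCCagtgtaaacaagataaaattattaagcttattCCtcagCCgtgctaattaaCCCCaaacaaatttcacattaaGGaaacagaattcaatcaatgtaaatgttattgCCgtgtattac
Counting overlapping dinucleotides, the Pde4d window holds 8 GG on the TS and 8 on the NTS, the Nckap5 window 13 and 10, and the Sox6 window 16 and 3. Single windows differ between strands, while the medians over whole long genes were 46.7 GG per kb on the TS and 46.6 on the NTS. Over its whole span Pde4d carries 71323 GG on the TS and 70987 on the NTS.

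Long genes differed in composition from the other protein-coding genes. Exons made up a median of 1.27% of their span, against 19.4% for the other 18422 protein-coding genes. The TS of a long gene held a median of 46.7 GG per kb, against 59.4, but because of the span each long gene still carried a median of 34840 GG on the TS, against 1224.5. By role, 60 of the 216 were cell adhesion and axon guidance molecules, 24 ion channels and receptors, 22 scaffold, junction and cytoskeleton proteins, 18 intracellular signalling proteins, 15 transcription and chromatin factors, 4 RNA-binding proteins, 28 fragile-site genes, enzymes and trafficking proteins, and 45 fell in none of these lists. A protein-coding gene lay on the opposite strand within the span of 28 long genes, and 188 had none.

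Sequencing depth ranged from 1571167 to 6441367 reads on genes for Damage-seq, from 10658675 to 59779770 for XR-seq and from 15619474 to 162270280 for RNA-seq. The 2 control libraries of lung, and the 2 of spleen, differed by little more than the sampling noise (chi-square per degree of freedom 2.75 and 2.98, against 39.3 to 349.4 for the other RNA-seq pairs). Each pair was summed and counted as 1 sample, so that in these organs 1 control sample was compared with 2 cisplatin samples. The 6 lung markers summed to 108600 to 128600 RPKM in lung and to at most 42.6 RPKM in the other organs, and the 6 spleen markers to 850.4 to 924.8 RPKM in spleen. The spleen markers also summed to 91.98 to 173.8 RPKM in liver, to 19.1 to 27.5 (cisplatin) and 88.7 to 90.03 RPKM (controls) in lung and to 1.89 to 4.62 RPKM in kidney.

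Long genes held a larger share of the Damage-seq reads than of the XR-seq and RNA-seq reads. They held 11.6 to 16.8% of the Damage-seq reads on genes in each library, 1.95 to 2.73% of the XR-seq reads and 0.0807 to 0.460% of the RNA-seq reads. These shares were not set against the long genes' share of GG. Fgfr2 held 129820 XR-seq reads over the 2 kidney libraries, in which all long genes held 392058 and 544197. Its span also holds 16 protein-coding genes on the opposite strand, over 28.7% of it, and 1 on the same strand. The median RPKM of the 216 genes ranged from 0.00995 to 0.299 over the 16 RNA-seq libraries, against 0.821 to 3.44 for protein-coding genes under 100 kb. A mean of at least 1 RPKM over the 4 libraries of the organ was reached by 47 long genes of the kidney, 28 of the liver, 67 of the lung and 41 of the spleen.

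The first comparison asked how the RNA of the long genes changed after cisplatin. Over all 216 genes, with no filter, their share of the reads was lower in each cisplatin library than in each control library of the same organ. In kidney the share was 0.340 and 0.370% in the control libraries and 0.190 and 0.202% in the cisplatin libraries. In liver it was 0.259 and 0.195% against 0.122 and 0.0807%, and in lung 0.453 and 0.460% against 0.261 and 0.271%. In spleen the gap was smaller, with 0.365 and 0.372% against 0.275 and 0.309%. These are bulk organs, in which fewer cells of a type and less RNA per cell cannot be told apart.

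Per gene, log2 fold changes were estimated with edgeR, and a gene was called when its change exceeded 0.4 on the log2 scale at a Benjamini-Hochberg adjusted p under 0.05 over all genes tested. A gene could pass the filter on low counts on its control libraries alone, so the counts and medians over tested long genes are descriptions and are set beside those of all genes under the same filter. In kidney 16 of 143 tested long genes were lower and 0 higher, where 2.65% of all 15471 genes tested were lower and 2.4% higher. At an unadjusted p under 0.05 there were 57 lower and 0 higher, where all genes had 1632 lower and 1305 higher. DESeq2 called 18 lower and 0 higher, and 432 lower and 402 higher among all 20750 genes tested. In lung 30 of 178 were lower and 0 higher, against 1.96% and 0.132% of all genes. At an unadjusted p under 0.05 there were 83 lower and 1 higher (all 18210 genes tested, 1788 and 585), and DESeq2 called 35 lower and 0 higher (all 22623 genes, 466 and 50). In liver edgeR called 0 of 101 lower and 0 higher, and likewise called no gene of any length (0.0% lower, 0.0% higher). Without adjustment, 54 of the 101 had p under 0.05 and a lower value and 2 a higher value, against 912 and 375 of all 13868 genes tested, and DESeq2 called 19 lower and 0 higher, against 161 and 27 of all 19613 genes. In spleen edgeR called 0 of 159 in either direction (all genes 0.017% lower, 0.164% higher), 47 had an unadjusted p under 0.05 with a lower value and 0 with a higher value, and DESeq2 called 2 lower and 0 higher. Of all 17686 genes tested there, 450 and 318 had an unadjusted p under 0.05, and DESeq2 called 32 lower and 53 higher of 22353.

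The numbers called depended on single libraries. In kidney, 3 long genes were called lower without cisplatin replicate 1 and 41 without control replicate 1, where 28 of all 16341 and 1091 of all 16337 genes tested were. In liver, 3 were called without control replicate 1, 8 without control replicate 2, 51 without cisplatin replicate 1 and 29 without cisplatin replicate 2. In the same order, 18 of 14217, 67 of 14331, 1287 of 14302 and 295 of 14394 genes of any length were called lower in liver. In lung, 0 were called without either cisplatin replicate, in an edgeR fit over all organs that called 9 with both, and 46 (without replicate 1) and 52 (without replicate 2) had an unadjusted p under 0.05 with a lower value. Of all genes, 0 of 19021 and 0 of 19022 were lower there, and 70 of 19100 with both. DESeq2 was not run without single libraries. In spleen, 1 was called without either cisplatin replicate in the same kind of fit, with 4 of all 19076 genes lower without replicate 1 and 4 of 18979 without replicate 2.

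The size of the change was of the same order in the 4 organs, although the calls were not. The median log2 fold change of the tested long genes was -0.81 (kidney), -1.35 (liver), -0.99 (lung) and -0.76 (spleen), and that of all genes tested lay between -0.00297 and 0.0342. Every cisplatin library lay below every control library for 67.8% of the tested long genes in kidney (97 of 143), 74.3% in the liver (75 of 101), 78.7% in the lung (140 of 178) and 74.8% in the spleen (119 of 159). The same held for 32.1, 18, 33.0 and 33.1% of all genes tested. Of 88 long genes tested in all 4 organs, 64 (72.7%) had a log2 fold change below 0 in each organ and 0 had one above 0 in each, while 19.9% of all 13204 genes tested in 4 organs were below 0 in each.

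The fall was graded by length up to a point. For genes under 100 kb the median log2 fold change was 0.07 for kidney, 0.10 for liver, 0.06 for lung and 0.06 for spleen. For genes of 100 to 200 kb it was -0.65, -0.79, -0.43 and -0.23, and for genes of 200 to 500 kb it was -0.92, -1.43, -0.82 and -0.50. In kidney and liver the long genes thus lay at or slightly above the class of 200 to 500 kb, and in lung and spleen they lay below it. The share called lower was, in kidney, 0.785% of genes under 100 kb, 12.5% of 100 to 200 kb, 23.6% of 200 to 500 kb and 11.2% of 500 kb or more, so that it peaked below 500 kb. In lung it was 1.11, 3.51, 15.9 and 16.9%. These shares cover tested genes at any RNA level. With at least 1 RPKM in the kidney controls, 14 of 53 long genes were lower in kidney, against 128 of 398 genes of 200 to 500 kb and 95 of 9739 under 100 kb. In lung the same classes had 20 of 71, 107 of 456 and 145 of 10619. In kidney the gap between long genes and those of 200 to 500 kb was thus smaller at this level. The level came from the same control libraries that the fall was measured from. A gene could reach it through high controls alone, so these counts are descriptions. Within the long genes, those over 1000 kb had a median of -0.48 in kidney (37 tested), against -0.98 for 33 genes of 600 to 800 kb.

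**Figure D1:**
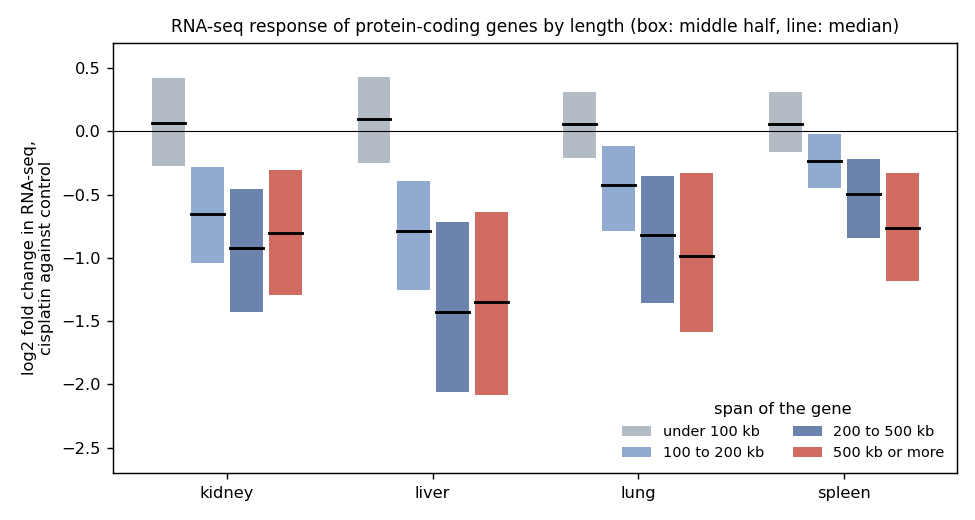
Log2 fold change in RNA-seq of cisplatin against control (vertical axis) for protein-coding genes tested in each organ, by span. Boxes run from the lower to the upper quartile and black lines mark medians. The boxes of the genes of 500 kb or more lie wholly below 0 in the 4 organs, with medians from -1.35 in liver to -0.76 in spleen, while the medians of genes under 100 kb lie between 0.06 and 0.10.

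Called long genes came from nearly every functional list. Among signalling proteins 3 of 17 tested were lower in kidney and 5 of 17 in lung. Of transcription and chromatin factors 2 of 13 were lower in kidney and 4 of 14 in lung, and of scaffold and junction proteins 4 of 20 and 4 of 21. Adhesion and guidance molecules, the biggest list, had 2 of 31 lower in kidney and 4 of 45 in lung. Of ion channels and receptors 2 of 20 were lower in lung, and in kidney all 11 tested had a log2 fold change below 0 with none called. In each list and organ the median was below 0, from -0.44 for adhesion molecules in kidney and for signalling proteins in spleen to -2.21 for the 2 ion channel genes tested in liver.

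**Figure D2:**
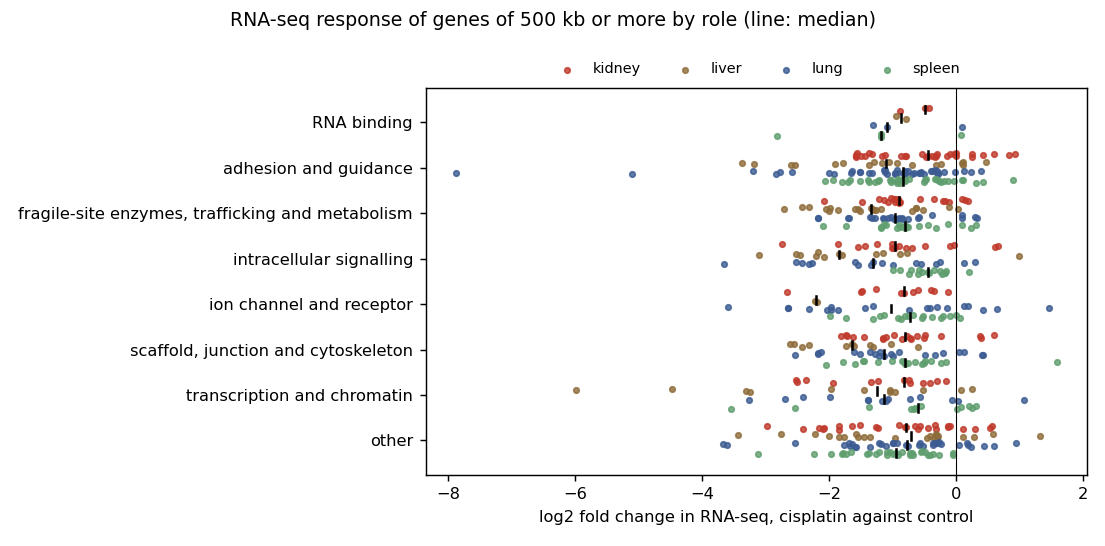
Log2 fold change in RNA-seq of cisplatin against control (horizontal axis) for each tested long gene, 1 point per gene and organ, by functional list (vertical axis). Colours give the organ and short black lines the median. All medians lie left of 0, between -0.44 and -2.21, and the lists overlap widely.

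Called changes ranged from a log2 fold change of -1.24 to -2.97 in kidney and from -1.08 to -5.11 in lung.

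Pde4d encodes a phosphodiesterase that degrades cyclic AMP. In kidney it measured 2.97 and 2.91 RPKM in the control libraries and 0.395 and 0.439 RPKM in the cisplatin libraries. The groups did not overlap, and the log2 fold change was -2.75 (SE 0.21, n = 2 against 2, edgeR adjusted p 0.00432). In lung it measured 1.78 and 1.99 RPKM against 0.634 and 0.648, again without overlap (log2 fold change -1.60, SE 0.23, edgeR adjusted p 0.0365). In liver the values were 0.332 and 0.263 RPKM against 0.0398 and 0.0285, and the change of -3.11 (SE 0.49) was not called (edgeR adjusted p 0.0912).

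Nckap5, which encodes a partner of the adaptor protein Nck, was most abundant in lung. There it measured 7.33 and 7.46 RPKM in controls and 1.14 and 1.42 RPKM after cisplatin. All cisplatin values were far below the controls (log2 fold change -2.53, SE 0.19, edgeR adjusted p 0.0134). In kidney it was lower throughout, at 0.650 and 0.646 RPKM against 0.0529 and 0.0961 (log2 fold change -2.97, SE 0.39, edgeR adjusted p 0.0178).

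Sox6 encodes an SRY-related transcription factor. In kidney it measured 3.67 and 4.01 RPKM in controls and 0.678 and 0.745 RPKM after cisplatin. The change was -2.37 on the log2 scale (SE 0.20, edgeR adjusted p 0.00681), with no overlap. In lung the level was lower and the change similar, at 0.851 and 0.890 RPKM against 0.149 and 0.125 (log2 fold change -2.69, SE 0.29, edgeR adjusted p 0.0190).

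Plcb1, a phospholipase C, measured 3.85 and 3.06 RPKM in kidney controls and 1.42 and 1.36 RPKM after cisplatin (log2 fold change -1.24, SE 0.19, edgeR adjusted p 0.0326). In lung it went from 3.15 and 3.15 to 0.434 and 0.652 RPKM (log2 fold change -2.53, SE 0.29, edgeR adjusted p 0.0225). Neither organ showed overlap. Pard3, a cell polarity scaffold, was called in both organs as well, at 4.09 and 4.54 against 1.17 and 1.34 RPKM in kidney (log2 fold change -1.72, SE 0.20, edgeR adjusted p 0.0160) and 4.89 and 4.81 against 0.928 and 1.22 RPKM in lung (log2 fold change -2.17, SE 0.21, edgeR adjusted p 0.0182).

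In all 6 long genes were lower in both organs, which is 37.5% of the 16 called in kidney and 23.1% of the 26 genes called in lung among 132 tested in both. The same overlap was not counted over all genes or other length classes. It is therefore not shown to be particular to long genes. In liver the 5 described here had log2 fold changes from -2.23 (Nckap5) to -3.25 (Sox6), and in spleen from -0.75 (Pde4d) to -3.12 (Nckap5), none of them called. Cisplatin libraries were below control libraries for each of these 5 in each organ.

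**Figure D3:**
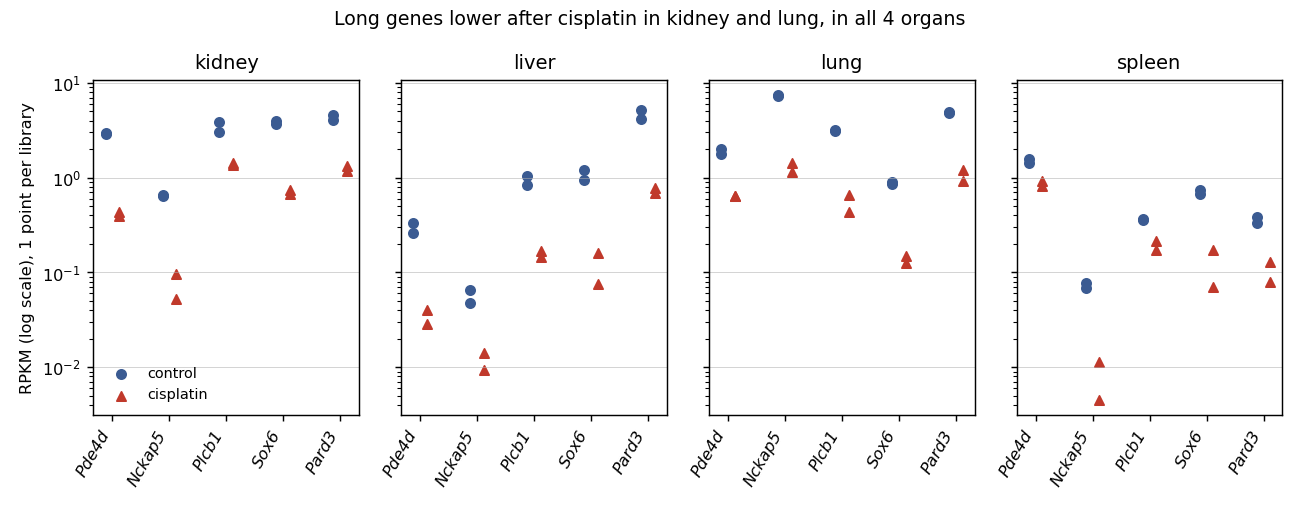
RPKM on a log axis of 5 long genes called lower in kidney and lung, in every RNA-seq library of the 4 organs. Circles are control and triangles cisplatin libraries, 2 of each. In every panel the triangles of a gene lie below its circles, and the gap is narrowest for Pde4d in spleen (1.56 and 1.44 against 0.817 and 0.915 RPKM).

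Other large falls belonged to 1 organ's calls. Esrrg, an orphan nuclear receptor of oxidative tissues, measured 16.5 and 13.6 RPKM in kidney controls and 2.43 and 2.55 RPKM after cisplatin. It had the highest control level of the kidney genes named here for their fall, and the groups were well apart (log2 fold change -2.52, SE 0.18, edgeR adjusted p 0.00349). Esrrg was also lower, though not called, in the other organs. Controls against cisplatin were 1.02 and 0.700 against 0 and 0.0229 RPKM in liver and 0.967 and 0.866 against 0.197 and 0.254 in lung. In spleen they were 0.383 and 0.332 against 0.0219 and 0.0351. Enox1, a cell-surface NADH oxidase, went from 0.910 and 0.659 to 0.161 and 0.125 RPKM in kidney (log2 fold change -2.41, SE 0.35, edgeR adjusted p 0.0226).

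In lung the falls with the largest ratio were in weakly expressed genes. Pcdh15, a protocadherin of hair cell tip links, measured 0.138 and 0.127 RPKM in controls and 0.00652 and 0.00207 RPKM after cisplatin (log2 fold change -5.11, SE 0.66, edgeR adjusted p 0.0235). Ntrk3, the receptor for neurotrophin-3, went from 0.582 and 0.528 to 0.0578 and 0.0306 RPKM (log2 fold change -3.65, SE 0.40). Sox5, a relative of Sox6, went from 0.729 and 0.799 to 0.0661 and 0.0956 RPKM (log2 fold change -3.26, SE 0.34). The groups did not overlap in any of these. B3galt1 (a galactosyltransferase, log2 fold change -3.61) and Tenm4 (a teneurin, -2.58) were also called. In liver, where no gene was called, Sox5 went from 1.36 and 1.29 to 0.0806 and 0.0416 RPKM. B3galt1 went from 4.39 and 2.05 to 0.462 and 0.153 RPKM there. Marker genes of other tissues moved with the lung groups: the summed RPKM of the 4 adipocyte markers was 166 to 170 in controls and 15.5 to 38.0 after cisplatin, that of the 6 spleen markers 88.7 to 90.0 against 19.1 to 27.5, that of the 7 kidney markers 65.6 to 65.8 against 3.38 to 9.39, and that of the 5 heart muscle markers 94.4 to 96.1 against 134 to 216. None of these markers was at 0, and their part in the changes of lung genes was not tested.

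The most abundant long genes were mostly not called. In kidney Sugct, a mitochondrial CoA transferase, measured 48.1 and 30.9 RPKM in controls and 50.8 and 41.5 RPKM after cisplatin (log2 fold change 0.29, SE 0.22, not called). Cpq, a secreted carboxypeptidase, measured 16.3 and 18.8 RPKM against 14.6 and 16.9, with overlapping groups (log2 fold change -0.10, SE 0.19). Dpyd, the rate-limiting enzyme of pyrimidine breakdown, overlapped as well, at 13.95 and 9.78 RPKM against 10.7 and 9.32. Pkhd1, the ciliary protein fibrocystin, was lower in each cisplatin library, at 14.9 and 20.4 RPKM against 10.2 and 9.498, but was not called (log2 fold change -0.79, SE 0.22, edgeR adjusted p 0.205). The 7 liver markers summed to 161.2 to 221.8 RPKM in the kidney controls and to 104.0 to 134.0 RPKM in the kidney cisplatin libraries, with none at 0, and their part in the kidney changes was not tested.

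In liver Dpyd had 88.6 and 57.1 RPKM in controls and 39.5 and 19.9 RPKM after cisplatin, which did not overlap but were not called (log2 fold change -1.32, SE 0.41, edgeR adjusted p 0.402). Cpq, Sugct and the nuclear receptor gene Rora had log2 fold changes of -0.30, 0.29 and 0.08 in liver, none called. The 4 adipocyte markers summed to 0.661 to 0.75 RPKM in liver controls (1 of the 4 at 0) and to 6.26 to 32.5 RPKM after cisplatin, the 6 lung markers to 6.76 to 13.6 RPKM in controls and 27.96 to 42.6 RPKM after cisplatin (none at 0), and the 4 neuron markers to 0.978 to 1.52 RPKM in controls (1 of the 4 at 0) and 0.359 to 0.412 RPKM after cisplatin. Syt1, 1 of the 4 neuron markers, is itself a long gene, at 1.435 and 0.942 RPKM in liver controls and 0.290 and 0.280 RPKM after cisplatin. It made up most of the neuron sum, so that this sum is not separate from the long genes. The part of these lists in the liver changes was not tested. In lung Ptprm, a receptor tyrosine phosphatase of cell contacts, was the exception among the 4 most abundant, going from 17.8 and 18.01 to 6.996 and 6.85 RPKM (log2 fold change -1.38, SE 0.15, edgeR adjusted p 0.0225). Foxp1, Cpq and Pde4b had -0.72, -0.31 and -0.32 there and were not called.

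In spleen the most abundant long genes were Dock2, Foxp1, March1 and Celf2. Dock2, which activates Rac in leukocytes, measured 37.1 and 36.6 RPKM in controls and 22.2 and 31.2 RPKM after cisplatin (log2 fold change -0.44, SE 0.23, not called). Foxp1, a forkhead factor of lymphocytes, was at 21.8 and 22.1 against 28.7 and 25.1 RPKM. March1, a ubiquitin ligase of antigen-presenting cells, and Celf2, a splicing factor, had log2 fold changes of -0.05 and 0.07. Celf2 was called lower in lung, at 8.02 and 8.15 RPKM against 3.41 and 3.13 (log2 fold change -1.32, edgeR adjusted p 0.0260). The 6 pancreas markers summed to 0.443 to 0.529 RPKM in the spleen controls and to 947.5 to 1220 RPKM in the spleen cisplatin libraries, with 1 of the 6 at 0 in the controls. The 6 lung markers summed to 9.28 to 10.3 RPKM in the spleen controls and to 27.7 to 31.3 RPKM after cisplatin, with none at 0, and the part of both lists in the spleen changes was not tested.

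The 3 longest genes tested in each organ were Fgfr2, Ptprd and Dmd. Ptprd, a receptor tyrosine phosphatase of synapses, was called in kidney, from 8.32 and 8.499 to 2.43 and 2.97 RPKM (log2 fold change -1.58, SE 0.19, edgeR adjusted p 0.0178). Its changes in liver, lung and spleen were -1.38, -0.66 and -0.49 and were not called. Dystrophin (Dmd) changed by -0.48, -1.61, -0.20 and -0.76 in kidney, liver, lung and spleen, none called. Fgfr2, a fibroblast growth factor receptor, changed by -0.70, -1.26, -0.25 and -0.60, none called. The median span of its 27 annotated transcripts is 97899 bp, far under the span of the gene. Macrod2, an ADP-ribosylhydrolase, and the fragile-site gene Fhit had log2 fold changes in liver of 0.04 (SE 0.37) and -0.11 (SE 0.69). Cntnap2 and Lsamp, neuronal adhesion genes at under 0.1 RPKM in each kidney library, had changes of 0.43 and -0.44 with SEs of 0.81 and 0.63.

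The responses of the organs were compared with each other directly. The difference kidney minus liver was called for 0 of 155 long genes by edgeR (all genes 0.0% lower, 0.00622% higher), with 4 lower and 13 higher at an unadjusted p under 0.05. The difference kidney minus lung was called for 0 of 189 (all genes 0.011% lower, 0.335% higher), with 7 and 13 at an unadjusted p under 0.05. At that unadjusted p, 532 of all 16075 genes were lower and 380 higher for kidney minus liver. For kidney minus lung 745 of all 18204 were lower and 1564 higher. DESeq2 was not run on these differences. In these fits a long gene called in kidney and not in liver or lung is therefore not shown to differ between those organs. With the replicate number as a block, kidney minus liver was called lower for 0 and higher for 1 of 155 long genes (13 and 34 of all 16075 genes), and kidney minus lung lower for 8 and higher for 14 of 185 (829 and 1720 of all 17662).

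The second comparison asked whether excision was stronger on the TS. XR-seq reads were divided by the GG dinucleotides of the strand, and TS was tested against NTS in each organ with edgeR at an adjusted p under 0.05. Of the 216 long genes, TS exceeded NTS in 105 in kidney (all genes 52.8%), 91 in liver (48.1%), 125 in lung (55.4%) and 132 in spleen (54.2%). TS was below NTS in 0, 8, 4 and 5 long genes (all genes 4.94, 5.72, 6.08 and 5.8%). The 0 in kidney is edgeR's, with 1 long gene lower at an unadjusted p under 0.05, and DESeq2 was not run on strands. Without replicate 1 and without replicate 2, the long genes with TS below NTS were 0 and 5 (kidney), 4 and 6 (liver), 2 and 1 (lung) and 4 and 4 (spleen). The counts among long genes were thus close to the share of all genes, from 42.1% in liver to 61.1% in spleen. TS exceeded NTS in each of the 4 organs for 77 long genes and in none for 63. The same counts over organs were not made for all genes, so these are descriptions.

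Over all long genes, whatever their RNA level, the median strand ratio was smaller than over shorter genes. The median TS/NTS ratio was 2.30 (kidney), 1.59 (liver), 3.82 (lung) and 4.62 (spleen), against 6.29, 5.43, 11.4 and 12.7 for genes of 200 to 500 kb and 7, 4.48, 9.79 and 9.05 for genes under 100 kb. The level differed still more: the median TS level of long genes was 0.244 to 0.517 RPM per 1000 GG (RPM are reads scaled to the library's reads on genes) over the 8 libraries, against 2.70 to 5.02 for genes of 200 to 500 kb. Within the long genes the median log2 ratio in lung was 2.40 for 500 to 600 kb, 2.27 for 600 to 800 kb, 1.59 for 800 to 1000 kb and 1.07 above, and the same order held in the other three organs.

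**Figure D4:**
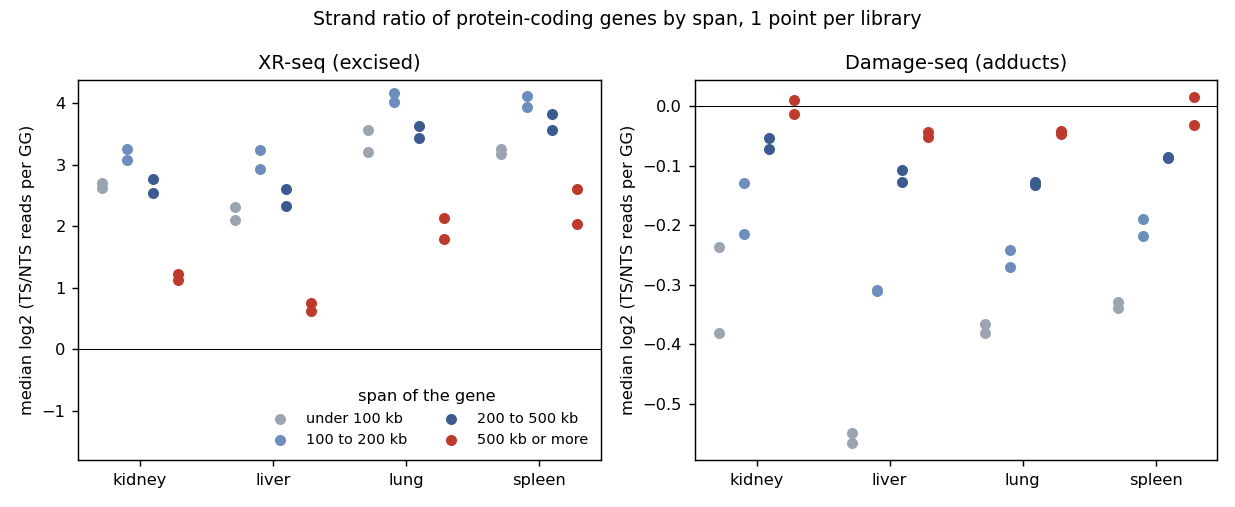
Median log2 TS/NTS ratio of reads per GG (vertical axes) by organ and gene span, 1 point per library, for XR-seq (left) and Damage-seq (right). In XR-seq the genes of 500 kb or more lie lowest in each organ, between 0.61 and 2.60, and in Damage-seq they lie nearest to 0, between -0.05 and 0.02.

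The ratio moved with RNA level. Of long genes with at least 1 RPKM in the controls, TS exceeded NTS in 51 of 53 (kidney), 35 of 36 (liver), 70 of 71 (lung) and 45 of 45 (spleen), with median ratios of 6.21, 12.3, 14.2 and 16.1. For genes of 200 to 500 kb above the same level, TS exceeded NTS in 374 of 398, 250 of 257, 432 of 456 and 353 of 361, with median ratios of 9.42, 17.5, 18.5 and 25.7. For genes under 100 kb above this level it did so in 8228 of 9723, 6547 of 8349, 8834 of 10591 and 8337 of 9884, with median ratios of 11.1, 8.13, 17.2 and 16.99. Among genes at or above 1 RPKM the median of the long genes thus lay below that of the genes of 200 to 500 kb in each organ, and above that of the genes under 100 kb in liver. Of long genes under 0.1 RPKM, it did so in 17 of 102, 15 of 133, 8 of 84 and 26 of 106. RNA-seq and XR-seq come from different libraries, and the controls were not treated.

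Exoc4, a subunit of the exocyst that tethers secretory vesicles, was among the 4 largest ratios in each organ. In spleen its TS held 16.7 and 16.2 RPM per 1000 GG and its NTS 0.342 and 0.283, a ratio of 48.7 and 57.3 (log2 ratio 5.73, SE 0.26, edgeR adjusted p 7.45e-07). The kidney ratio was 30.99 and 16.5, that of lung 45.0 and 40.0, and that of liver 43.1 and 34.6. Both strands were far apart in every library. Diaph2, a formin that nucleates actin, had 30.5 and 22.1 in kidney and 105 and 46.9 in spleen. Dpyd had 71.5 and 8.82 in kidney, where its NTS held only 0.0237 and 0.138 RPM per 1000 GG, so that the ratio is loosely measured.

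Other large ratios were those of Foxp2, a forkhead factor (31.5 and 26.6 in liver), Cadps2, a vesicle priming factor (31.1 and 41.1 in lung), Nbea, a trafficking scaffold (33.3 and 32.1 in lung), Smyd3, a lysine methyltransferase (48.8 and 61.4 in spleen), and Atrnl1, an attractin-like membrane protein (54.3 and 14.5 in kidney). Cpq had 45.0 and 19.9 in liver. In spleen its NTS held 0.00406 and 0.115 RPM per 1000 GG and its TS 4.47 and 4.17, a log2 ratio of 6.32 (SE 0.81).

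A few long genes were excised more on the NTS. Kirrel3, a nephrin-like adhesion protein, had TS levels of 0.228 and 0.387 and NTS levels of 1.94 and 1.81 RPM per 1000 GG in liver. The lung had 0.385 and 0.325 against 2.29 and 2.29, and the spleen 0.255 and 0.273 against 3.53 and 3.27. The NTS was higher in each of these libraries, with log2 ratios of -2.65 (SE 0.30), -2.69 (SE 0.30) and -3.68 (SE 0.32). No protein-coding gene lies on the opposite strand of Kirrel3. Kcnip4, an interacting protein of potassium channels, had TS levels of 0.0687 and 0.123 and NTS levels of 0.866 and 0.943 in liver (log2 ratio -3.30, SE 0.83), and 0 and 0.0574 against 0.590 and 0.595 in spleen. One protein-coding gene lies on its opposite strand over 2.18% of its span. In kidney the Kcnip4 ratio of 0.217 and 0.252 was not called (edgeR adjusted p 0.0502).

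Grip1, a scaffold of glutamate receptors, had ratios of 0.234 and 0.247 in spleen (log2 ratio -2.06, SE 0.28, edgeR adjusted p 0.000228). Ryr3, a calcium release channel, had 0.184 and 0.326 in liver. Grm5 in lung and Lrrtm4 and Thsd7b in kidney had log2 ratios of -1.57, -1.30 and -1.09 with SEs of 1.37, 1.13 and 0.79, and were not called. Restricting the count to the 188 long genes with no protein-coding gene on the opposite strand left TS above NTS in 91, 80, 109 and 116, and below in 0, 2, 4 and 3, in kidney, liver, lung and spleen.

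The third comparison asked whether fewer adducts remained on the TS, by the same test on Damage-seq. TS was below NTS in 9 long genes in kidney (all genes 18.8%), 41 in liver (29.5%), 40 in lung (24.5%) and 18 in spleen (11.8%). These are 4.17, 19, 18.5 and 8.33% of the 216, under the share of all genes in each organ. TS was above NTS in 0, 0, 0 and 6 (all genes 0.353, 0.868, 1.45 and 0.532%). At an unadjusted p under 0.05, edgeR had TS above NTS in 2, 2, 3 and 15. The counts below NTS fell in each organ when 1 of its libraries was left out, for long genes and for all genes. Without replicate 1 and without replicate 2, the median log2 ratio of long genes in kidney was -0.0125 and 0.0103. That of all genes was -0.166 and -0.255. In liver the medians of long genes were -0.0426 and -0.0514 (all genes -0.372 and -0.359), and in lung -0.0416 and -0.0469 (-0.274 and -0.256). In spleen they were 0.0154 and -0.0312 (-0.229 and -0.225). Without dividing by GG the splits were 14 lower and 7 higher in kidney and 18 and 13 in spleen. All genes then had 5069 and 152 in kidney and 3452 and 262 in spleen.

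The median TS/NTS ratio of adducts in long genes was 1.00 (kidney), 0.973 (liver), 0.967 (lung) and 1.00 (spleen). For genes of 200 to 500 kb it was 0.961, 0.929, 0.916 and 0.945, and for genes under 100 kb 0.817, 0.693, 0.781 and 0.794. With at least 1 RPKM in the controls, TS was below NTS in 7 of 53 (kidney), 28 of 36 (liver), 33 of 71 (lung) and 15 of 45 (spleen). Above the same level it was in 150 of 398, 212 of 257, 264 of 456 and 147 of 361 genes of 200 to 500 kb, and in 3565 of 9718, 5202 of 8342, 4325 of 10597 and 2018 of 9894 genes under 100 kb. Under 0.1 RPKM, TS was below NTS in none of 102, 1 of 133, 4 of 84 and 1 of 106. TS was below NTS in all 4 organs for Zbtb20, Exoc4 and Lpp, in none for 147 long genes. These counts over organs were not made for all genes either.

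**Figure D5:**
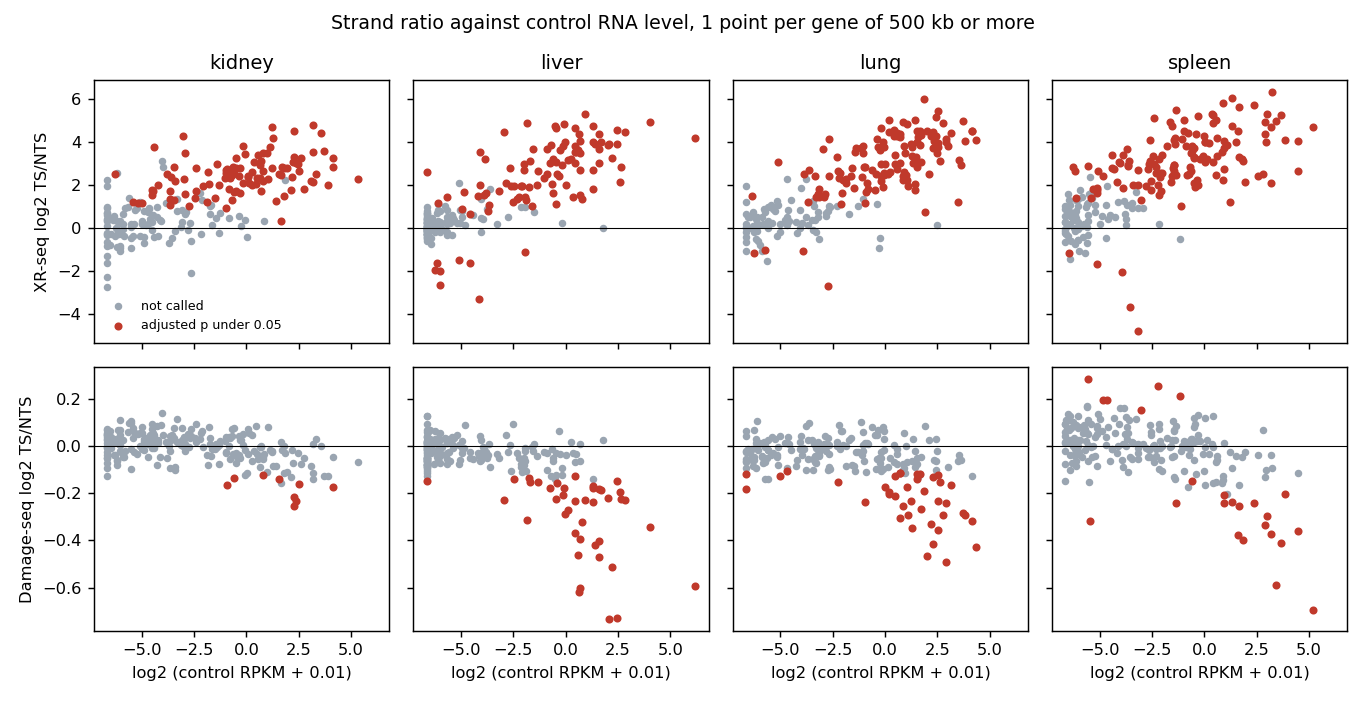
Log2 TS/NTS ratio of XR-seq (top row) and Damage-seq (bottom row) for each of the 216 long genes in each organ, against the log2 of the mean control RPKM plus 0.01. Red points were called at an adjusted p under 0.05. Most genes under 0.1 RPKM lie around 0 in both rows, while above 1 RPKM nearly all lie above 0 in XR-seq, and in Damage-seq the calls below 0 concentrate there.

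Zbtb20, a zinc finger repressor prominent in liver, had the lowest adduct ratio in 3 organs. In liver its TS held 6.25 and 5.88 and its NTS 10.3 and 9.89 RPM per 1000 GG, a ratio of 0.608 and 0.595 (log2 ratio -0.73, SE 0.06, edgeR adjusted p 1.93e-25). The TS was lower by a similar amount in both libraries. The ratio was 0.708 and 0.717 in lung and 0.817 and 0.862 in kidney. In XR-seq the fitted TS/NTS ratio of Zbtb20 was 14.7 in liver, and its RNA was 4.09 and 4.29 RPKM in liver controls against 1.24 and 2.56 after cisplatin (log2 fold change -1.04, SE 0.52, not called).

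Ptprk, a receptor tyrosine phosphatase, had adduct ratios of 0.595 and 0.613 in liver, and Foxp1 0.629 and 0.679 (log2 ratios -0.73 and -0.62, SEs 0.07 and 0.06). In lung Elmo1, which works with Dock proteins in cell engulfment and migration, had 0.723 and 0.725, and Foxp1 0.724 and 0.762. In spleen the lowest ratios belonged to Dock2, Elmo1 and Arhgap15. Dock2 had 0.562 and 0.666 (log2 ratio -0.70, SE 0.08, edgeR adjusted p 3.19e-14), Elmo1 0.669 and 0.663, and Arhgap15, a Rac GTPase activator, 0.719 and 0.784. Dock2 was not called in kidney, liver and lung (fitted ratios 0.983, 1.05 and 1.02).

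Adducts were more frequent on the TS for 6 long genes in spleen, for 1 without replicate 1, for 1 without replicate 2 and for 0 with the organ fitted on its own (edgeR, with 7 at an unadjusted p under 0.05). Dach2, a transcription cofactor, had ratios of 1.19 and 1.24 (log2 ratio 0.28, SE 0.09, edgeR adjusted p 0.0185), and Thsd4, an extracellular matrix protein, 1.26 and 1.14 (log2 ratio 0.26, SE 0.06). Ryr3 had 1.12 and 1.20 and the glutamate receptor gene Grm8 1.19 and 1.11. In kidney the largest ratios, those of the potassium channel gene Kcnd2 (1.19 and 1.03), Aff2 (1.05 and 1.12), Nkain3 (1.13 and 1.03) and Fat3 (1.05 and 1.11), were not called. Nor were those of Unc5d, Hs6st3, Mecom and Fam155a in liver (log2 ratios 0.09 to 0.13) or of Lrrtm4, Sgcd, Nav3 and Ryr2 in lung (0.09 to 0.11). The NTS of long genes held a median of 285.5 Damage-seq reads per 1000 GG over the 8 libraries, against 314.6 for genes under 100 kb. It was under 0.75 of the median of the long genes in 4, Rbfox1, Fgf12, Robo1 and Dlg2, at 0.424, 0.443, 0.566 and 0.700 of it. Per the study's methods the strands were separated with ENSEMBL genes of mm10, and the release is not given in the sources used here. For these 4 the counted span may be shorter than the GENCODE M21 span whose GG were used.

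The last comparison asked which long genes were excised more on the TS in 1 organ than in the mean of the other three. In kidney 48 long genes were higher and 63 lower (all genes 15.5% and 17.0%), in liver 80 and 61 (28.2% and 22.6%), in lung 55 and 87 (15.3% and 16.1%) and in spleen 68 and 57 (14.1% and 13.9%). Scaling to reads on genes moved the median of all genes from -0.002335 to 0.23 in kidney and from 0.08 to -0.17 in liver on the log2 scale, and the split became 61 higher and 50 lower in kidney and 68 and 68 in liver. In lung and spleen the medians of all genes moved by less than 0.1.

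Pkhd1, expressed in kidney tubules and bile ducts, had TS levels of 6.30 and 4.78 RPM per 1000 GG in kidney and 4.89 and 5.91 in liver. The lung held 0.0440 and 0.0556, and the spleen 0.116 and 0.0564. Kidney and liver were each far above the other organs, with log2 differences of 4.16 (SE 0.17) and 4.61 (SE 0.17), and lung and spleen far below (-4.81 and -3.96). Syt1, a calcium sensor of exocytosis, had 5.76 and 4.77 in liver and at most 0.527 in the other six libraries (log2 difference 4.82, SE 0.22, edgeR adjusted p 4.67e-09). Cdh18, a cadherin, was liver-high at a lower level (0.733 and 0.535). Grip1 (3.09 and 2.00) and the growth factor gene Nrg1 (4.37 and 3.42) were highest in kidney.

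In spleen the largest differences were those of Dock2, Csmd3 and Arhgap15. Dock2 had 26.4 and 24.4 RPM per 1000 GG there, 2.14 and 1.65 in lung and under 1 in kidney and liver (log2 difference 4.76, SE 0.12, edgeR adjusted p 3.48e-10). Arhgap15 had 17.1 and 17.4 (log2 difference 4.43, SE 0.10), and Csmd3, a complement-domain protein of neurons, 1.06 and 1.08 against under 0.1 elsewhere. In lung Adgrl3, an adhesion G protein-coupled receptor, had 9.65 and 9.90 against at most 1.44 elsewhere (log2 difference 4.19, SE 0.13). Edil3, an integrin ligand, had 1.41 and 1.59, and Mctp1, a calcium-binding membrane protein, 2.79 and 2.33 in lung and 2.07 and 1.93 in spleen.

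Among the lowest values in an organ, in liver Agbl4, a deglutamylase, and Ccser1 had log2 differences of -3.18 and -3.15 and TS levels of 0.0951 to 0.164. In lung Erbb4, the neuregulin receptor, and Tenm3, a teneurin, had -3.45 and -3.45, and Tenm3 was at 13.4 and 13.6 in liver. In kidney the endosomal sodium/proton exchanger gene Slc9a9 had -2.72, and in spleen the glutamate receptor-like gene Grid1 -2.47 and Pcdh11x -2.65 (edgeR adjusted p 0.0499).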

How the data were processed

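RNA-seq was poly-A selected and not strand-specific, and per the study's methods reads were aligned to mm10 with STAR and counted per gene with featureCounts. The Damage-seq and XR-seq reads were aligned by the authors to mm10 with BWA and cleared of duplicates, reads with GG at the damage position were kept, and counts were deposited per gene on the TS and the NTS. Tool versions are not given in the sources used here. All deposited values used were raw counts.

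The long genes, their functional lists and the tests were chosen with earlier results of these data known. No list was tested as a set. Spans, exons and GG dinucleotides came from GENCODE M21 and GRCm38. RPKM was computed per exon length. Some genes of this length, also among those the naming rule selects, and some sequences are not reported here.

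Differences were fitted with edgeR 4.0.16 (quasi-likelihood, TMM, filterByExpr) in R 4.3.3, each organ on its own for RNA-seq, testing against a log2 change of 0.4. Strand fits held all 16 strand columns with a library block and an offset for depth and GG, and needed at least 10 GG per strand and 20 reads. Benjamini-Hochberg adjustment ran over all genes tested. SE is the log2 change divided by the root of F. Lung and spleen RNA-seq left 1 residual degree of freedom and kidney and liver 2. Damage-seq pairs also lay near the sampling noise (index 1.43 to 3.11) at low depth and were kept apart. The study's methods adjust normalised values for batch with ComBat, without saying in the sources used here which libraries share a batch, so that no batch term was fitted. The paper describes 2 biological replicates for each experiment. The labels do not tie libraries to separate animals, so p-values measure the spread between libraries, which may be technical. DESeq2 1.42.0, other filters and scalings, a replicate block and leaving out each library were alternatives, and the fits were tested on simulated data. There a 2-fold RNA change was called for 10% of changed genes in kidney, 0% in liver and 26% in lung. A 4-fold change was called for 75, 13 and 87%. A 2-fold strand difference in kidney was called for 8% in XR-seq and 95% in Damage-seq. Many true RNA changes of the size of the medians would thus not be called.

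For each organ the text names the 6 largest called RNA falls, the 5 longest genes tested, the 4 most abundant, the 4 largest and 3 smallest strand ratios in each assay and the 3 largest rises and falls between organs, with at least 200 reads for strand ratios. Genes named beyond this rule were chosen after their values were seen. Figures used matplotlib 3.10.9.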

Additional observations from a re-analysis of the deposited data

Results flagged for a closer look

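For 7 long genes described here, the XR-seq strand ratio lay on opposite sides of 1 in both libraries of 1 organ and both of another. The share of all genes with such a pattern was not counted, so 7 is not a result about long genes. The difference between organs was not tested for any of the 7. All of the 7 but Grip1 were chosen after their values were seen. Astn2, an astrotactin, had TS/NTS ratios of 0.428 and 0.479 in liver against 2.05 and 1.35 in lung and 2.10 and 2.45 in spleen, log2 differences of 1.87 (lung minus liver) and 2.33 (spleen minus liver). Sdk1, a sidekick adhesion protein, had 0.264 and 0.397 in liver against 5.43 and 4.19 in lung and 4.88 and 5.28 in spleen, differences of 3.88 and 3.97. Cacna2d3, a calcium channel subunit, had 0.250 and 0.410 in liver against 3.23 and 2.19 in lung and 2.55 and 3.14 in spleen, differences of 3.06 and 3.15 (lung and spleen minus liver).

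Cacna1c, the pore of an L-type calcium channel, had 0.214 and 0.298 in liver and 3.70 and 3.03 in lung, a difference of 3.73. Trpm3, a cation channel, had 0.426 and 0.549 in lung and 2.76 and 2.46 in spleen, a difference of 2.43. Dlgap1, a postsynaptic scaffold, had 3.09 and 1.98 in liver against 0.524 and 0.431 in lung and 0.292 and 0.328 in spleen, differences of 2.38 and 2.99 (liver minus lung and minus spleen). Grip1 had 3.86 and 2.72 in kidney against 0.316 and 0.393 in liver and 0.234 and 0.247 in spleen, differences of 3.20 and 3.75 (kidney minus liver and minus spleen). A protein-coding gene lies on the opposite strand of Astn2, Cacna2d3, Cacna1c and Grip1, over 1.1, 1.89, 3.47 and 0.577% of the span, and of none of Sdk1, Trpm3 and Dlgap1, and its part was not tested.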

How the results depend on the processing

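Counts of long genes with lower RNA moved most. With no filter on low counts they were 40 (kidney), 19 (liver), 61 (lung) and 1 (spleen), beside 1090 of all 20750, 135 of 19613, 948 of 22623 and 19 of 22353 genes. Against a change of 0 they were 33 in kidney and 46 in lung (941 of all 15471 and 720 of all 18210 genes). DESeq2 called 19 in liver and 2 in spleen (161 of all 19613 and 32 of all 22353 genes). In one fit over 4 organs the counts were 37 in liver, 9 in lung and 1 in spleen (440, 70 and 3 of all 19100 genes). With each library as a replicate they were 74 in lung and 3 in spleen (1341 of all 17017 and 24 of all 16731 genes). Leaving out single libraries gave 3 to 41 (kidney), 3 to 51 (liver), 0 to 30 (lung) and 0 to 1 (spleen), and 0 to 1 higher in liver. Damage-seq counts of TS below NTS became 14 in kidney without the GG adjustment and 0 in spleen with the organ fitted on its own, and ranged from 0 to 7, 19 to 26, 22 to 22 and 9 to 9 without single libraries in kidney, liver, lung and spleen. Of all 22939 genes, 5069 had TS below NTS in kidney without the GG adjustment. With the organ fitted on its own, 0 did in spleen. Differences between organs without the filter gave 5 long genes for kidney minus liver, 1 lower and 4 higher (118 and 79 of all 22010 genes). They gave 3 for kidney minus lung, 1 lower and 2 higher (60 and 353 of all 23446 genes). The causes were not tested.

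With the replicate block, lower RNA was called in 57 long genes in kidney, 51 in liver (1 higher), 75 in lung and 6 in spleen, and the organ difference in 1 (kidney minus liver) and 22 (kidney minus lung). Of all genes, 1715 of 15471, 795 of 13868, 1532 of 17017 and 83 of 16731 were then lower in kidney, liver, lung and spleen. The block fits took the 2 control libraries of lung, and the 2 of spleen, as 2 samples and did not sum them. Taken as 2 samples without a block, they gave 74 lower long genes in lung and 3 in spleen. Numbers 1 and 2 are not stated to mark a shared animal, batch or day. Deviations of same-numbered RNA-seq libraries correlated at 0.573 (kidney), 0.473 (liver), 0.0737 (lung) and 0.259 (spleen), and XR-seq TS between organs at -0.047 to 0.0487.

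Among named genes, log2 changes near 0 turned when 1 library was left out, and their ranges follow. In kidney Cntnap2 ranged from -0.0335 (without control replicate 1) to 0.1189, Cpq from -0.2615 to 0.07856 (without control replicate 2, and 0.02124 without cisplatin replicate 1), Dpyd from -0.3604 to 0.01808 (without control replicate 1) and Lsamp from -1.18 to 0.3464 (without control replicate 2). In liver Fhit ranged from -1.377 to 0.5401 (without cisplatin replicate 1, and 0.4059 without control replicate 2), and Macrod2 from -0.1482 (without cisplatin replicate 2, and -0.0851 without control replicate 1) to 0.1749. In lung Macrod2 ranged from -0.07552 (without cisplatin replicate 2, and -0.02626 without control replicate 1) to 0.5047. In spleen Celf2 ranged from -0.02617 (without cisplatin replicate 1) to 0.1023, and March1 from -0.5632 to 0.2261 (without cisplatin replicate 1, and 0.01773 without control replicate 2). The XR-seq log2 ratio of Lrrtm4 in kidney was -2.687 without replicate 2 and 0.05074 without replicate 1. Without Rbfox1, Fgf12, Robo1 and Dlg2, 16 long genes were lower in kidney and 30 in lung. Damage-seq depth of 1571167 to 6441367 reads limits small strand differences.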

Other observations

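The 20 genes of a list of repair and elongation factors were tested in each organ. In kidney Cdk9, the kinase of the elongation factor P-TEFb, and Ccnt1, its cyclin, rose by 1.12 and 1.35 on the log2 scale (edgeR adjusted p 0.0326 and 0.0311), and edgeR called none lower, nor any factor in the other organs. Of all genes tested, 2.4% were higher and 2.65% lower in kidney and 0.0 and 0.0% in liver. In lung they were 0.132 and 1.96%, and in spleen 0.164 and 0.017%, so that few calls could arise outside kidney. The median log2 fold change of the list was 0.44 (kidney), 0.31 (liver), 0.14 (lung) and 0.10 (spleen). The listed genes are all under 100 kb, and the medians of all tested protein-coding genes of that class were 0.07, 0.10, 0.06 and 0.06.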
